A study of Mus musculus with 6 samples.

Results

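The nuclear genes for the mitochondrial respiratory chain were followed in mouse embryo libraries with and without Lphn2. Members were all gene symbols that begin with Nduf, Uqcr, Cox4 to Cox8 or Atp5, together with Sdha, Sdhb, Sdhc and Sdhd. Of the 24421 symbols, 92 matched, and 87 of these averaged at least 1 CPM (the count divided by the library total and scaled to a common size) over the 6 libraries. All 87 were among the 13848 genes tested. Levels below are CPM scaled by TMM, which corrects for differences in library make-up. The 6 libraries were labelled as whole embryo of strain C57BL/6N at embryonic day 9.5, 3 of wild type (WT) and 3 of a homozygous Lphn2 knockout (KO). Lphn2, now Adgrl2, encodes the adhesion G protein-coupled receptor latrophilin-2, and the study's title places the work in cardiac progenitors and heart development. The labels name no deleted exon, no Cre driver and no other allele, and do not say whether a library is 1 embryo, and each p-value therefore reflects only how far these libraries scatter, which may in part be technical.

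The respiratory chain lies in the inner mitochondrial membrane. Complex I takes electrons from NADH and complex II from succinate, complex III passes them through cytochrome c to complex IV, which reduces oxygen, and complex V uses the resulting proton gradient to make ATP. Most subunits come from the nucleus and are imported, while a few come from mitochondrial DNA and were not analysed here. The embryonic heart is known to turn towards mitochondrial respiration around mid-gestation, and several complex IV subunits have separate muscle isoforms.

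Promoters of this gene set are known for binding sites of NRF1 (nuclear respiratory factor 1), of GABPA (an ETS factor also called NRF2) and of YY1, so these were looked for first. A RefSeq promoter on GRCm38.p6, from 250 bases before to 50 after the start, was found for 74 of the 87 genes. The letters GCATGCGC, the core of the NRF1 site, occurred on either strand in 12 of 74 genes (16.2%), against 3.94% of 17492 protein-coding genes and 3.05% of all 27025 genes in the table. The YY1 letters AAGATGGC occurred in 11 (14.9%), against 3.57% of protein-coding genes. The ETS letters CCGGAAGT occurred in 5 (6.76% against 5.69%), the E-box CACGTG in 7 (9.46% against 8.91%) and CCAAT in 33 (44.6% against 42.3%). TATAAA was found in 5 (6.76% against 14.8%). The NRF1 and YY1 letters were thus more frequent here than among other coding genes, and the TATA letters less frequent, as a description with no test. GC content was close, with a median of 58.5% against 56.3%, and none of the 6 motifs contains another. A match of letters is not a measured binding site.

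The 3 windows of 90 bases below show where such letters lie, for genes of 3 complexes. They come from the complex I accessory gene Ndufa6 (chr15:82354326-82354415, minus strand), the complex III gene Uqcr11 (chr10:80406839-80406928, minus strand) and the complex V gene Atp5l (chr9:44920903-44920992, minus strand). Each is printed in the direction of transcription on GRCm38.p6, from 124 to 35, 107 to 18 and 250 to 161 bases before the start, outside annotated exons. Capitals mark the NRF1 core in Ndufa6 and Atp5l and the ETS letters in Uqcr11.
Ndufa6: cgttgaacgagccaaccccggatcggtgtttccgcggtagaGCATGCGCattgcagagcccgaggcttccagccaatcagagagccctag
Uqcr11: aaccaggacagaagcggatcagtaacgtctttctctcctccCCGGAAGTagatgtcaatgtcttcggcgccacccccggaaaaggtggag
Atp5l: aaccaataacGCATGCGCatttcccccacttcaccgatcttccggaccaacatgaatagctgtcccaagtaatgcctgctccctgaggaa

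**Figure D1:**
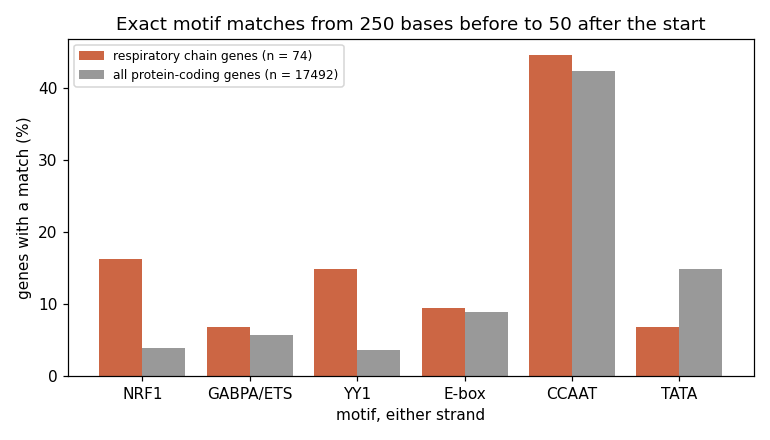
Share of genes (y axis, percent) whose promoter holds each motif (x axis) on either strand, for 74 respiratory chain genes and 17492 protein-coding genes. NRF1 stands at 16.2% against 3.94% and YY1 at 14.9% against 3.57%.

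The libraries held 14476809 to 36213611 counts and differed in the tissues they carried. Adgrl2 stood at 7.56 to 15.96 CPM in WT and 1.67 to 5.49 CPM in KO libraries, which does not check the genotype since its tags may lie outside the deleted part. Summed CPM of 13 decidual markers was 20385 to 37207 in WT and 7763 to 14048 in KO libraries, although the label names embryo alone. Prl8a2 gave most of each WT sum, at 14989 to 28746 CPM in WT and 1279 to 5335 CPM in KO libraries. Of the 13, 6 had a lower KO mean. The others had a higher one, such as Des at 928 to 1493 CPM in WT and 2014 to 3538 CPM in KO libraries. The 11 trophoblast markers summed to 1417 to 5926 CPM in WT and to 3725, 52.1 and 146 CPM in KO replicates 1, 2 and 3, and the 10 yolk sac markers to 431 to 684 and to 201, 25.3 and 38.3 CPM, with every marker of both lists lower in the KO mean. The 11 cardiomyocyte markers summed to 103, 41.2 and 429 CPM in WT and to 7.87 to 22.6 CPM in KO libraries, the 8 neural markers to 30.3 to 165.8 and 8.55 to 21.5 CPM, and the erythroid markers to 3719.5 to 6475 and 825 to 1449 CPM, each list with all of its markers lower in the KO mean. The erythroid list holds 9 genes, of which Hba-a1 and Hba-a2 have identical counts and were summed once. The 7 markers of uterine natural killer cells summed to 219 to 482 and 678 to 1120 CPM, with 0 of 7 lower. Ctsq and Gcm1 were at 0 in WT replicate 3 and KO replicates 2 and 3, Ttr in KO replicate 2, and Apoa4, Amn, Cubn and Apom in both of these KO replicates. KO replicates 2 and 3 therefore stood apart from KO replicate 1, and results are given with and without it.

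No respiratory chain gene passed the threshold, an adjusted p under 0.05, in either direction. With edgeR's quasi-likelihood test, adjusted over all genes, 0 of 87 were higher (0% of all genes tested) and 0 were lower (0.0505% of all genes), with adjusted p of 0.173 and above. At an unadjusted p under 0.05, 9 of 87 were higher (10.3%, against 8.68% of all genes) and 0 were lower (against 6.86%). DESeq2 called 1 gene higher, Ndufa4 (1.15% of members, against 3.49% of all genes it could adjust), and 0 lower (against 2.87%). In such bulk libraries, fewer cells of a type and less RNA per cell cannot be told apart.

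The direction was mostly towards higher values in the KO libraries, by a small amount. A positive log2 fold change of KO over WT was found in 73 of 87 genes (83.9%), against 46.6% of all genes tested. The median was 0.16 (quartiles 0.06 and 0.28), against -0.04 for all genes (-0.45 and 0.28). All KO values lay above all WT values in 21 genes (24.1%, against 12.1% of all genes) and below them in 2, Atp5s and Ndufaf6 (2.3%, against 9.39%). No member differed by more than 2-fold, as 18.1% of all genes did. Among genes of at least 10 CPM, 0 of 79 members and 9.81% of 7954 genes did so. The median SE of the log2 fold change was 0.19, and for 76 of the 87 genes the 95% interval stayed within a 2-fold change either way. The other 11 were Cox8a, Ndufa4, Sdhc, Ndufs1, Cox7a2l and Cox6b2, whose intervals ran past a doubling, and Atp5s, Cox7a1, Ndufa4l2, Ndufaf2 and Ndufaf6, whose intervals ran past a halving. Those of Cox7a1 and Ndufa4l2 ran past both.

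**Figure D2:**
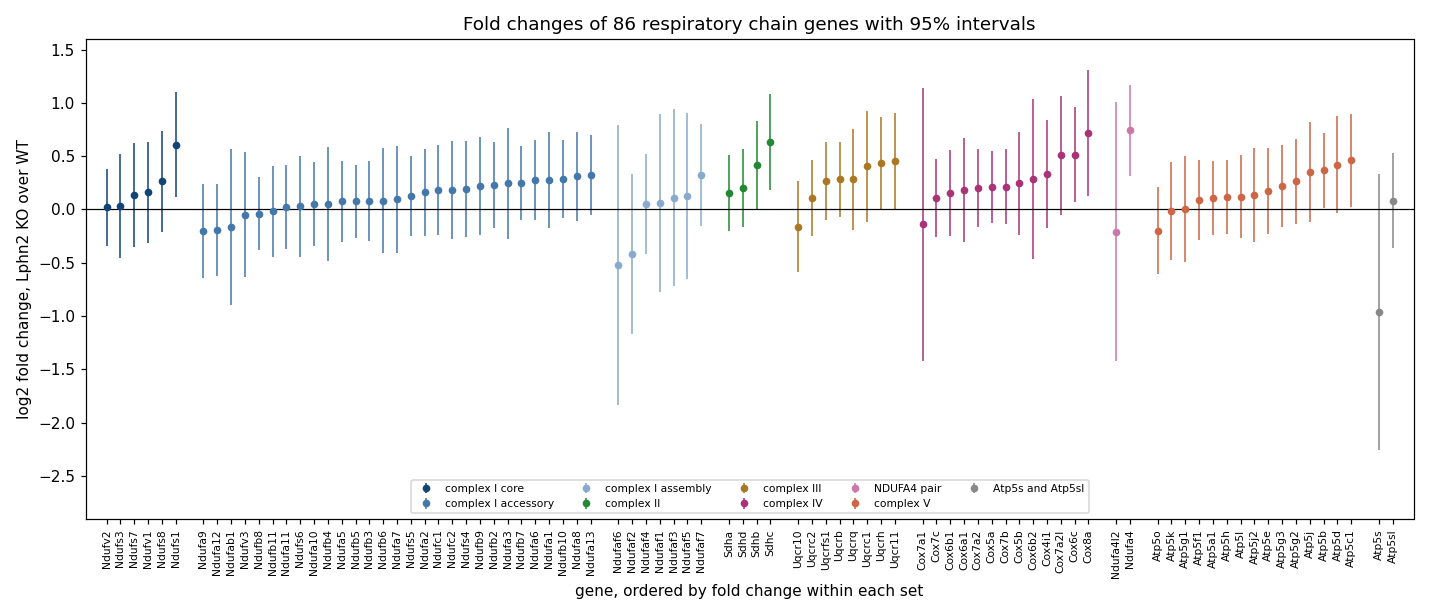
Log2 fold change of KO over WT (y axis) for 86 of the 87 genes (x axis), by complex, with 95% intervals from the edgeR fit. Most points lie above 0, and 9 intervals, among them those of Ndufa4, Cox8a, Sdhc and Ndufs1, lie wholly above 0. The intervals are not adjusted for the number of genes. These 9 genes are those higher at an unadjusted edgeR p under 0.05 (10.3% of members, against 8.68% of all genes).

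The values split the KO group. KO replicates 2 and 3 held the highest value of 29 and 30 of the 87 genes, KO replicate 1 of 10, and WT replicates 1, 2 and 3 of 5, 10 and 3. The same count was not made over all tested genes, so it does not by itself set the members apart. Without KO replicate 1, the median was 0.24 with 74 of 87 positive (85.1%, against 46% of all genes), and still 0 members were called, although 252 genes were called higher in that fit (1.77%) and 466 lower (3.27%). With KO replicate 1 alone against WT, chosen after the data were seen, the median was 0.07 with 52 of 87 positive (59.8%, against 45.9%). KO replicate 1 lay above all WT values in 33 genes (37.9%, against 23.4%) and below them in 13 (14.9%, against 21.2%). KO replicates 2 and 3 both lay above them in 48 (55.2%, against 22.4%) and below them in 5 (5.75%, against 23.5%). These 2 libraries are also those with the low trophoblast and yolk sac sums and the highest natural killer sums, whose part in the difference was not tested.

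Summed over the 87 genes, the level was 10314, 11409 and 10377 CPM in WT replicates 1, 2 and 3 and 11504, 13399 and 13496 CPM in KO replicates 1, 2 and 3. Every KO library thus lay above every WT library, with KO replicate 1 only slightly above WT replicate 2. The group means were 10699.6 ± 615 and 12799.8 ± 1124 CPM (SD, n = 3 each), a ratio of 1.20. Atp5g3 gave a large part of the sum, and without it the ratio was 1.21. By complex, the ratio of summed levels was 1.24 for the complex I core, 1.09 for its accessory subunits, 1.04 for its assembly factors, 1.31 for complex II, 1.23 for complex III, 1.33 for complex IV and 1.15 for complex V. Every KO sum lay above every WT sum only in complexes II and V. KO replicate 1 lay below WT replicate 2 for the complex I core (406 against 417 CPM) and complex IV (2429 against 2545 CPM). It did so too for the accessory subunits and complex III. For the assembly factors, KO replicates 2 and 3 lay below WT replicate 3. Members also varied little among libraries of 1 group. At 10 CPM or more, their median coefficient of variation was 10.6% in WT and 12.2% in KO libraries, against 19.4% and 16.6% for all such genes.

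**Figure D3:**
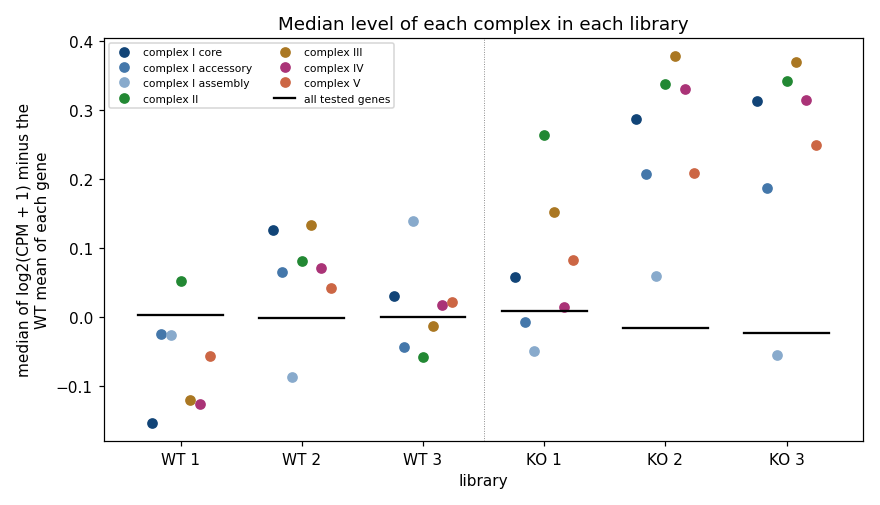
Median over the genes of each complex (points) and over all tested genes (bars) of log2(CPM + 1) minus the WT mean of the gene (y axis), in each library (x axis). Complex III stands at 0.38 and 0.37 in KO replicates 2 and 3 and at 0.15 in KO replicate 1, while all tested genes stay between -0.02 and 0.01. Ndufa4, Ndufa4l2, Atp5s and Atp5sl are left out of the complexes.

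Complex I core subunits carry the flavin and the iron-sulfur clusters that take electrons from NADH. All 7 had positive fold changes, with a median of 0.16, and 1 of 7 lay above WT without overlap (against 12.1% of all genes). Ndufs1, the largest iron-sulfur subunit, stood at 97.5, 121 and 114 CPM in WT and at 136, 159.7 and 212 CPM in KO replicates 1, 2 and 3. Every KO value was above every WT value, and KO replicate 3 was far above the other 2. The log2 fold change was 0.61 ± 0.21 (SE), with a 95% interval of 0.11 to 1.10 (edgeR adjusted p = 0.251). It was 0.31 with KO replicate 1 alone. Its 6 counts share the divisor 4, so each tag may have been counted more than once, and it overlaps Eef1b2 and Ino80dos on the other strand. Ndufs8, another iron-sulfur subunit, stood at 45.3, 46.2 and 39.4 CPM in WT and at 40.7, 53.6 and 63.1 CPM in KO libraries, with overlap (0.26). The counts of Ndufs8 share the divisor 3. Ndufs7, close to the quinone site, had 0.14, and Ndufv1, which binds NADH, 0.16. Ndufs3 and Ndufv2 lay near 0, at 0.04 and 0.02. The interval of Ndufv2 ran from -0.34 to 0.38, and its counts share the divisor 2.

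Accessory subunits surround that core and give it stability. Of 29, 23 had positive and 6 negative fold changes, with a median of 0.09 and a range of -0.21 to 0.32, and all 29 intervals stayed within 2-fold. Ndufa13, also known as GRIM-19, stood at 78.0, 76.5 and 83.8 CPM in WT and at 86.8, 101 and 109.9 CPM in KO libraries. The groups did not overlap, and the log2 fold change was 0.32 ± 0.16 (SE, edgeR adjusted p = 0.380). Ndufa8, one of the subunits on the intermembrane side, had 0.31, with KO replicate 1 at 32.2 CPM inside the WT range of 26.3 to 32.8 CPM. Ndufa6 (the promoter printed above), Ndufb10 and Ndufb7 also showed no overlap, at 0.28, 0.28 and 0.25. In all, 4 of 29 lay above WT without overlap, near the share of all genes (12.1%). Among the lowest was Ndufa9, at 25.6, 24.9 and 20.3 CPM in WT and at 20.5, 21.9 and 18.8 CPM in KO libraries (-0.21). Ndufa12 had -0.19, also with overlap. Ndufab1, the mitochondrial acyl carrier protein, had -0.16. Ndufb3, among the abundant ones, stood at 180.0 to 228 CPM in WT and 209 to 219 CPM in KO libraries (0.08). Ndufa1 and Ndufb11, which with Cox7b of complex IV are the 3 X-linked members, had 0.28 and -0.02, and Cox7b 0.21.

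Complex I assembly factors help to build the enzyme and are not part of it. Of 7, 5 had positive and 2 negative fold changes, with a median of 0.06, and with KO means of 1.29 to 22.9 CPM the median SE was 0.33. Without overlap, 1 of 7 lay above WT (against 12.1% of all genes) and 1 below (against 9.39%). Ndufaf7, a protein methyltransferase, stood at 11.05, 10.3 and 12.6 CPM in WT and at 14.3, 14.0 and 14.1 CPM in KO libraries, with no overlap (0.32 ± 0.20 SE, edgeR adjusted p = 0.489). Its 3' end matches many other transcripts, so its value is uncertain. Ndufaf6 stood at 1.78, 2.01 and 1.80 CPM in WT and at 1.76, 0.600 and 1.497 CPM in KO libraries, lower without overlap by a narrow margin in KO replicate 1 (-0.52, interval -1.84 to 0.79). Ndufaf2 had -0.42 with an interval of -1.17 to 0.33, and Ndufaf4 and Ndufaf5 had 0.05 and 0.13.

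Complex II, succinate dehydrogenase, is the 1 complex coded wholly in the nucleus and also a step of the tricarboxylic acid cycle. All 4 genes had positive fold changes, with a median of 0.31, and 3 of 4 showed no overlap (12.1% of all genes). Sdhc, one of the membrane anchors, stood at 73.6, 65.5 and 71.1 CPM in WT and at 86.8, 109.8 and 129.5 CPM in KO replicates 1, 2 and 3. The WT values lay close together and the KO values spread upward from just above them. The log2 fold change was 0.63 ± 0.19 (SE), with an interval of 0.19 to 1.08 (edgeR adjusted p = 0.209). It was 0.78 without KO replicate 1 (adjusted p = 0.0574, edgeR) and 0.33 with that replicate alone. Sdhb, the iron-sulfur subunit, stood at 136, 133 and 108 CPM in WT and at 146, 182 and 174 CPM in KO libraries (0.41 ± 0.18 SE, edgeR adjusted p = 0.319). Sdhd, the other anchor, stood at 34.6, 38.7 and 36.7 CPM and at 46.3, 40.3 and 39.5 CPM (0.20), with KO replicate 1 the highest. Sdha, the flavoprotein that oxidises succinate, stood at 76.5, 79.4 and 68.8 CPM and at 87.0, 76.4 and 86.5 CPM, with overlap (0.15).

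Complex III passes electrons from ubiquinol to cytochrome c. Of its 8 genes, 7 had positive fold changes, the median was 0.28, and 4 showed no overlap (12.1% of all genes). Uqcrh, the hinge protein, stood at 386, 477 and 445 CPM in WT and at 492, 636 and 636 CPM in KO libraries (0.43 ± 0.18 SE, edgeR adjusted p = 0.323). Uqcr11, whose promoter is printed above, stood at 64.3, 79.3 and 74.2 CPM and at 80.3, 115 and 103 CPM (0.45 ± 0.19 SE, edgeR adjusted p = 0.318). In both genes KO replicate 1 lay just above the highest WT library. Uqcrb and the Rieske iron-sulfur protein Uqcrfs1 also showed no overlap, at 0.28 and 0.27. The 3' end of Uqcrb has 4 near copies elsewhere, so its value is uncertain. The core proteins Uqcrc1 and Uqcrc2 had 0.40 and 0.11 with overlap. Uqcr10 alone was on the other side, at 132, 180.5 and 145 CPM in WT and 121, 145.0 and 143 CPM in KO libraries (-0.16). Cyc1, the cytochrome c1 that the symbol rule does not reach, stood at 35.2, 48.9 and 42.7 CPM and at 48.0, 53.8 and 55.2 CPM (0.31), and Cycs, cytochrome c, had 0.15.

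Complex IV, cytochrome c oxidase, had 12 of 13 fold changes positive, with a median of 0.21, and 4 of 13 without overlap (12.1% of all genes). Ndufa4 and Ndufa4l2, described further below, are not among these 13. Cox8a, the ubiquitous form of subunit 8, stood at 248, 347 and 299 CPM in WT and at 339, 555 and 572 CPM in KO replicates 1, 2 and 3. KO replicate 1 lay within the WT range and the other 2 far above it. The log2 fold change was 0.71 ± 0.25 (SE), with an interval of 0.12 to 1.31 (edgeR adjusted p = 0.255), 0.92 without KO replicate 1 and 0.21 with it alone. Cox6c stood at 294, 337 and 333 CPM in WT and at 369.7, 526 and 479.6 CPM in KO libraries, with no overlap (0.51 ± 0.19 SE, edgeR adjusted p = 0.269), though its 3' end is nearly shared with Cox6c2 and Gm16399. Cox7a2l, studied for a role in supercomplexes of complexes III and IV, stood at 564, 726 and 483 CPM and at 645, 926 and 949 CPM, with overlap (0.51). Whether it has that role in these animals was not examined. Its counts share the divisor 2. Cox5a and Cox7a2 showed no overlap at 0.21 and 0.20, and Cox4i1, which comes early in assembly, had 0.33 with overlap. The 3' end of Cox5a is shared with Gm26631 on the other strand, so its value is uncertain.

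Ndufa4, long counted as a complex I subunit and now known as a subunit of complex IV, had the smallest p of the 87 genes. It lies on mm10 chromosome 6, 11900292 to 11907497, on the minus strand, with no overlapping gene and no near-identical 3' end. It stood at 73.6, 53.1 and 55.6 CPM in WT and at 96.5, 107 and 101 CPM in KO replicates 1, 2 and 3. The 3 KO values lay close together and all above WT, KO replicate 1 included. The means were 60.8 ± 11.2 and 101.7 ± 5.47 CPM (SD, n = 3 each), and the log2 fold change was 0.74 ± 0.18 (SE), with an interval of 0.32 to 1.17. The edgeR adjusted p was 0.173, and DESeq2 gave an adjusted p of 0.0144 (range over the alternatives 0.0144 to 1.0). It was 0.69 with KO replicate 1 alone and 0.78 without it, so its size hardly moved with that library. Its relative Ndufa4l2, a target of the hypoxia-inducible factor in other tissues, stood at 5.98, 7.25 and 5.43 CPM in WT and at 7.61, 1.80 and 6.70 CPM in KO libraries. KO replicate 2 alone was low, and without it the fold change turned from -0.21 to 0.21.

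**Figure D4:**
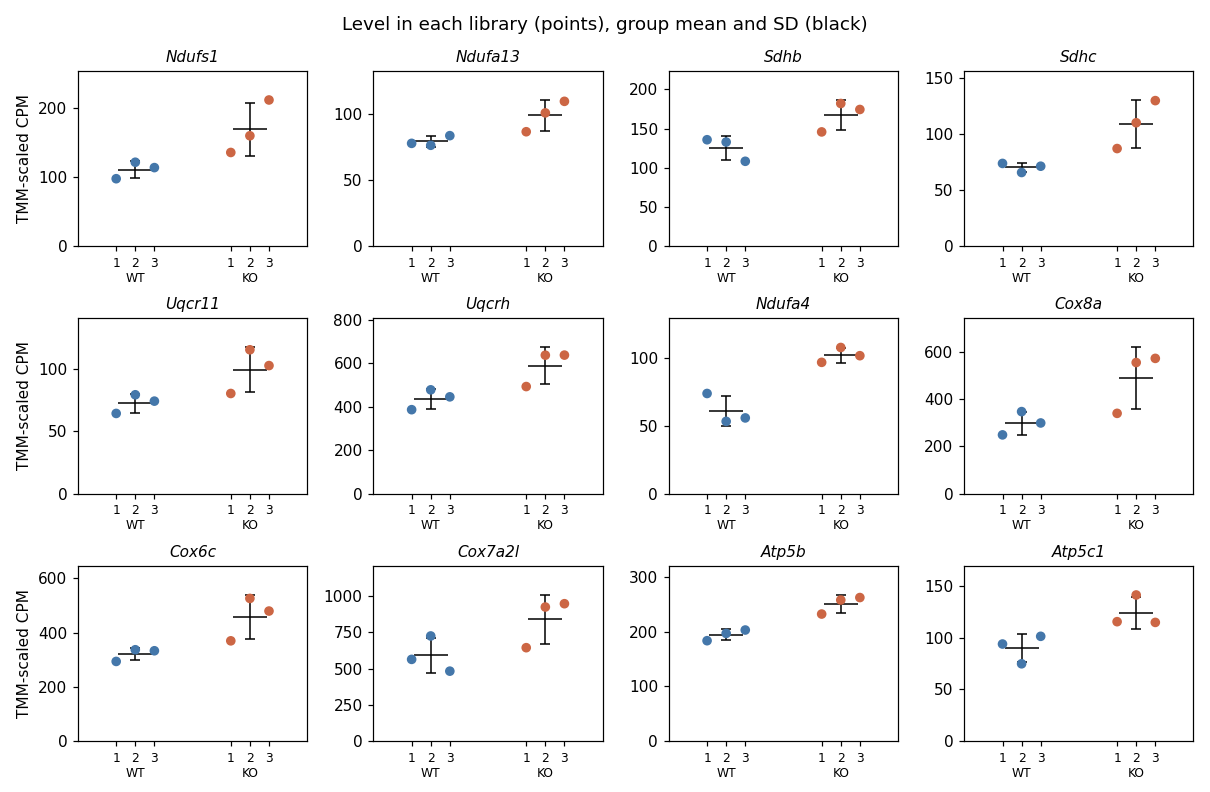
TMM-scaled CPM (y axis, from 0) of 12 genes in WT and KO replicates 1 to 3 (x axis), with group mean and SD in black. KO replicate 1 lies below KO replicates 2 and 3 in Cox8a, Cox6c and Cox7a2l, and the 3 KO values of Ndufa4 lie together above WT.

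Several complex IV subunits have a second gene used in muscle, lung or testis, and apart from Cox6b2 these stood near or under 1 CPM in most libraries. Cox6a2, of heart and skeletal muscle, averaged 0.925 CPM and so fell just outside the rule, with 15, 0 and 160 counts in WT and 1, 7 and 1 in KO replicates 1, 2 and 3. Most of its counts came from WT replicate 3, the library with the highest cardiomyocyte sum of 429 CPM, and its share of the Cox6a1 and Cox6a2 sum there was 2.75%. Its 3' end is shared with Itgad on the other strand, so its value is uncertain. Cox8b, the muscle form of subunit 8, had 16 counts in WT replicate 3 and 0 in the other 5 libraries, where 0 counts allow up to 0.109 to 0.214 CPM. Cox7a1, of muscle, stood just inside the rule at 1.09, 1.22 and 2.12 CPM in WT and 1.29, 1.73 and 0.998 CPM in KO libraries (-0.14, interval -1.42 to 1.14), again with the highest value in WT replicate 3. Cox4i2, of lung, reached 0.836 CPM in WT replicate 3 and 0 to 0.143 CPM elsewhere. Cox8c and Cox7b2, of testis, had 2 counts in all and 0. Cox6b2, also named for testis, was present in every library, at 21.9, 17.9 and 27.5 CPM in WT and 16.5, 30.4 and 35.5 CPM in KO libraries. It made up 11.4 ± 3.29% of the Cox6b1 and Cox6b2 sum in WT and 12.0 ± 3.02% in KO libraries (SD, n = 3 each), with overlap. Cox6b1 and Cox6a1, the ubiquitous partners, had 0.15 and 0.18.

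Complex V, the ATP synthase, had 13 of 15 fold changes positive, with a median of 0.13, and 3 of 15 without overlap (12.1% of all genes). Atp5b, the catalytic beta subunit, stood at 184, 197 and 203 CPM in WT and at 233, 258 and 263 CPM in KO libraries (0.37 ± 0.15 SE, edgeR adjusted p = 0.306). The 2 groups were separate and each was tight. Atp5c1, the gamma subunit of the rotating stalk, stood at 93.97, 74.8 and 101 CPM and at 116, 141 and 115 CPM (0.46 ± 0.19 SE, edgeR adjusted p = 0.301), but its counts share the divisor 2 and its 3' end has 2 near copies. Atp5d, the delta subunit, had 0.42 with overlap, and Atp5a1, the alpha subunit that pairs with Atp5b, 0.11 with an interval of -0.24 to 0.46. The 3 genes Atp5g1, Atp5g2 and Atp5g3 each code for the same c subunit of the membrane ring after their import signals are removed. Atp5g3 stood at 2794, 3053 and 2725 CPM in WT and at 3271, 3298 and 3419 CPM in KO libraries, without overlap (0.22), while Atp5g2 had 0.26 and Atp5g1 0.00 with overlap. Atp5g3 gave 95.3 ± 0.511% of the tags of the 3 genes in WT and 95.6 ± 0.557% in KO libraries (SD, n = 3 each), so their proportions moved by less than the spread. The 3' ends of Atp5g1 and Atp5g2 have 7 and 2 near copies elsewhere and that of Atp5g3 has 0, so these shares are uncertain. Atp5o, the OSCP subunit, had -0.20 with overlap and Atp5k, the e subunit, -0.01. Atp5l, a subunit g gene whose promoter is printed above, stood at 75.8 to 98.6 CPM in WT and 92.0 to 102 CPM in KO libraries (0.12). Atp5s and Atp5sl carry the family name without being subunits. Atp5s stood at 1.49, 1.58 and 2.09 CPM in WT and at 1.25, 0.800 and 0.570 CPM in KO libraries, lower without overlap (-0.96, interval -2.25 to 0.34), and Atp5sl had 0.08.

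Further genes, of mitochondria and of the response to hypoxia, were read from 9 lists. Of their 86 tested genes, 0 passed the threshold over all genes with edgeR. At an unadjusted p under 0.05 there were 8 higher (9.30%, against 8.68% of all genes) and 2 lower (2.33%, against 6.86%). DESeq2 called 2 (2.33%), Ppargc1b higher (against 3.49% of all genes) and Adm lower (against 2.87%). The tricarboxylic acid cycle list had 11 of 13 positive and a median of 0.20, with 5 of 13 above WT without overlap (against 12.1% of all genes). In it Idh3g, a regulatory subunit of isocitrate dehydrogenase, stood at 32.9, 36.1 and 37.9 CPM in WT and at 45.0, 57.7 and 50.4 CPM in KO libraries (0.52, edgeR adjusted p = 0.227). For assembly factors the medians were -0.06 for complex II (3 tested of 4), -0.15 for complex III (6 genes), 0.08 for complex IV (18 genes) and -0.39 for complex V with its inhibitor (4 genes). Atpif1, the inhibitor of ATP synthase, stood at 78.8, 73.9 and 107.5 CPM in WT and at 55.3, 59.3 and 58.4 CPM in KO libraries, below WT without overlap (-0.59, edgeR adjusted p = 0.227). Cox18, which inserts a complex IV subunit into the membrane, had 0.44, Sdhaf2, which helps flavin onto Sdha, 0.36, and Ttc19, of complex III, -0.25. Membrane carriers, pores and import genes had a median of -0.01 over 16 genes, with the ADP/ATP carrier Slc25a5 at 84.3, 83.1 and 89.8 CPM in WT and 112, 108 and 106 CPM in KO libraries (0.34).

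Among regulators of mitochondrial biogenesis, 5 of 13 were positive, with a median of -0.18. Ppargc1b, the coactivator PGC-1 beta, stood at 5.98, 4.87 and 7.84 CPM in WT and at 12.6, 12.7 and 14.6 CPM in KO replicates 1, 2 and 3. The groups were well apart in all 3 KO libraries (1.09 ± 0.27 SE, edgeR adjusted p = 0.173, DESeq2 adjusted p = 0.0203). Its relative Ppargc1a, PGC-1 alpha, stood at 0.652, 1.46 and 3.87 CPM and at 0.314, 0 and 0.713 CPM (-2.55, edgeR adjusted p = 0.354), with the highest value in WT replicate 3. Nrf1, whose motif core is printed above, stood at 18.5, 21.6 and 21.1 CPM and at 13.6, 16.0 and 15.97 CPM, below WT without overlap (-0.42, edgeR adjusted p = 0.345). Gabpa had 0.25 and Tfam, which packs mitochondrial DNA and activates its transcription, -0.29. The hypoxia-inducible list, which shares Ndufa4l2 and Cox4i2 with the members, had 4 of 11 positive and a median of -0.21, with Adm, adrenomedullin, at 836, 623 and 181 CPM in WT and at 271, 117 and 145 CPM in KO libraries (-1.62, edgeR adjusted p = 0.255, DESeq2 adjusted p = 0.0236). WT replicate 3 lay inside the KO range for Adm, so these groups overlapped.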

How the data were processed

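Each deposited table gives raw counts, as whole numbers, for 1 library of QuantSeq 3' end reads, made from 500 ng of total RNA per the labels' protocols. The authors used Bowtie2 and edgeR with the mm10 build, per the submitters' processing notes. Of the annotation, the counting program and the strand setting nothing is stated in the labels used. Tags mark 3' ends, so a level is not scaled by gene length.

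Genes were kept with filterByExpr (minimum count 10) and scaled by TMM, and KO was compared with WT by the quasi-likelihood test of edgeR 4.0.16 in R 4.3.3 with Benjamini-Hochberg adjustment over all 13848 genes (threshold 0.05). SE and 95% intervals come from the F statistic. The code was tested on simulated data. Positions are from GENCODE M21 on mm10 (90 of 92 symbols). Of 86 members with transcripts there, 30 share at least 50 bases of their last 200 at 95% identity or more with another gene (BLAST 2.17.0), and 30 of 87 overlap a gene on the other strand. The median of these 30 by sequence match was 0.12, and that of the other 57 was 0.20. The 57 include Atp5sl, which had no transcript there and was not searched. For 7 members the 6 counts shared a divisor above 1. Members and lists were chosen with earlier results of these data known. Genes were named by rule: per complex, the extremes in fold change, the smallest p and the highest mean, with all Sdh genes and isoforms. Others were named after their values were seen. The single values of 1 member are not reported here.

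Replicate numbers were not taken to pair the samples in the main fit. Deviations of same-numbered libraries correlated at 0.18, -0.05 and 0.07, which cannot settle whether the samples were paired. The alternatives were 3 other scalings, 2 other filters, DESeq2 1.42.0, limma-voom (limma 3.58.1), the replicate block, removed divisors, 1 symbol per identical set, each library left out, and KO replicate 1 alone.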

Additional observations from a re-analysis of the deposited data

How the results depend on the processing

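The count of members called was 0 lower under all 17 alternatives and 0 higher under all but DESeq2, which gave 1. Over all genes, 7 lower and 0 higher became 387 and 470 with DESeq2, 0 lower with 1 symbol per identical set and with KO replicate 1 alone, and 0 to 466 lower and 0 to 252 higher as each library was left out, the highest without KO replicate 1. With the replicate block 0 genes were called lower, and the member median was 0.16 with 0 members called. WT replicate 1 and KO replicate 1 correlated at 0.18, but the other same-numbered pairs lay under 0.1. The median of members stayed between 0.14 and 0.24 except with KO replicate 1 alone (0.0675), where complex I accessory subunits had -0.000701, assembly factors -0.0555 and complex IV 0.0307. Leaving out each library gave 0.10 to 0.31 for the complex I core, 0.0910 to 0.23 for accessory subunits and 0.11 to 0.23 for complex V. For the assembly factors (0.0571) it gave -0.00829, without KO replicate 3, to 0.137, without WT replicate 3.

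Some genes changed sign, among them Cox4i1, Cox6b2 and Ndufs8, which stood above the member median. Atp5g1 had -0.0119 with DESeq2, -0.0118 with its size factors, -0.0228 with the 5 CPM filter and -0.23 with KO replicate 1 alone, and Atp5k 0.00605 with library size only. With KO replicate 1 alone Cox4i1 had -0.0355, Cox6a1 -0.0803, Cox6b2 -0.42, Ndufa4l2 0.31, Ndufaf5 -0.0881 and Ndufs8 -0.0801. As each library was left out, Atp5g1 ranged from -0.14 to 0.14, Atp5k from -0.10 to 0.13, Cox7a1 from -0.35 to 0.21, Ndufa4l2 from -0.55 to 0.21, Ndufaf4 from -0.0543 to 0.16, Ndufaf5 from -0.00829 to 0.24 and Ndufb3 from -6.66e-05 to 0.18. The cause was not tested. The other genes named by the rule kept their sign under every alternative that could be fitted for them. Counting error bears most on members near 1 CPM, such as Atp5s, Cox7a1 and Ndufaf6.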
